A study of Mus musculus with 8 samples.

Results

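The 9 genes described here encode receptors for the inhibitory neuropeptides neuropeptide Y (NPY), galanin and somatostatin: Npy1r, Npy2r, Npy5r, Galr1, Galr2, Sstr1, Sstr2, Sstr3 and Sstr4. They were picked by gene symbol out of the 40800 genes of the deposited table, with the mutant and wild-type values of these same samples already known, so their differences between genotypes are given as a description and support no statement about the set. The table holds RNA sequencing of dorsal root ganglia, which house the cell bodies of the sensory neurons of trunk and limbs, from mice aged 6 months. The 4 wild types were C57BL/6 mice, and the 4 mutants were homozygous for a Tmem184b gene trap on a C57BL/6 background. The inserted trap diverts splicing and so truncates the transcript wherever the gene is used, so these animals are not a model of loss in neurons alone. The labels give no sex, litter, dissection date or number of ganglia pooled, and they do not say that the samples of a group are separate animals beyond their numbers, so the spread between samples may be technical in part. Samples are named by genotype and number, and values per sample are always given in the order 1, 3, 4 and 8 for the wild types and 1, 2, 3 and 4 for the mutants.

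Somatostatin receptors, galanin receptor 1 and the NPY receptors Y1, Y2 and Y5 couple to inhibitory G proteins, which lower cyclic AMP, open inwardly rectifying potassium channels and close presynaptic calcium channels. Galanin receptor 2 also couples to the Gq class and so can excite. On sensory neurons Y2, encoded by Npy2r, sits on central terminals and restrains transmitter release, and Npy2r is also used as a genetic handle on fast-conducting mechanical nociceptors. Galanin and NPY are known for their induction in sensory neurons after nerve injury, while somatostatin is made by a small class of itch neurons.

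The sequence shown first bears on whether reads of these related receptors can be told apart, since no deposited field states how reads shared between genes were counted. Within a family the coding sequences were 42.3% identical for Npy2r and Npy5r at the least and 64.5% identical for Sstr1 and Sstr4 at the most, base by base in a global alignment of the longest annotated coding sequence of each gene. The longest exact runs shared by pairs of somatostatin receptors, each printed whole from the GENCODE M21 transcripts, were short against a single-end read of 150 bases.
Sstr1 and Sstr3: aaccccatcctctacggcttcct
Sstr1 and Sstr4: gctatgccaacagctgtgccaa
Sstr2 and Sstr4: cgctatgccaagatgaagac
These runs are 23, 22 and 20 bases long. None of the 9 receptors shared a stretch of 31 bases with another of the 9. Npy2r, Npy5r, Galr1, Galr2, Sstr1, Sstr2 and Sstr4 shared no stretch of 31 bases with any annotated transcript of another gene, read in the same direction. Matches to the reverse complement were not searched for any of the 9. Sstr3 shared 11 of its 4288 distinct 31-base stretches with Sstr5, and Npy1r shared 129 of 3433 with transcripts of 2236 other genes.

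Upstream sequence is shown for Npy2r and Sstr2, the tested receptors with the lowest and the highest difference between genotypes. RefSeq windows of 250 bases before the start, build GRCm38.p6, were matched for 7 of the 9 receptors. Capitals mark the motifs searched on either strand: the cAMP response element TGACGTCA, the GC box GGGCGG, the RUNX core TGTGGT and the TATA box TATAAA. Npy2r reads from chr3:82548086-82548335 on the minus strand, and Sstr2 from chr11:113619077-113619326 on the plus strand.
Npy2r: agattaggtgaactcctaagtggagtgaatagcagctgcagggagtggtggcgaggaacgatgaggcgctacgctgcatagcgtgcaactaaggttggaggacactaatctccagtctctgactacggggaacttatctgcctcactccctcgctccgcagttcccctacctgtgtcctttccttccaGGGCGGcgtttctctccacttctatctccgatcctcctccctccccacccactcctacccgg
Sstr2: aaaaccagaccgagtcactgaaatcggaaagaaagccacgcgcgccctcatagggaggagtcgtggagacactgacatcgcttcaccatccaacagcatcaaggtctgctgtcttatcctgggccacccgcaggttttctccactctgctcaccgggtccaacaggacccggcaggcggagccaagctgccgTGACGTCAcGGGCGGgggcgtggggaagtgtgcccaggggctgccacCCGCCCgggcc
The Npy2r window held 1 GC box, and the Sstr2 window held 1 cAMP response element and 2 GC boxes that do not overlap it. Over all 32851 RefSeq windows of this length, 32.7% held a GC box, 1.55% a cAMP response element, 14.0% a RUNX core and 12.4% a TATA box. Of the 7 matched receptors, 2 had a GC box, 1 a cAMP response element, 1 (Galr2) a RUNX core and 0 a TATA box. A match describes these letters and is no evidence that a factor binds.

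Libraries held 6183618 to 7983821 reads, so that 1 read was worth 0.125 to 0.162 CPM and a floor of 3 reads 0.376 to 0.485 CPM, where CPM is the usual scaling of reads to a common library total. The trapped gene checks the labels: Tmem184b stood at 7.36 to 7.51 log2 CPM in wild type and 2.47 to 3.10 in the mutants. In all samples the pan-neuronal markers summed to 7546 to 8353 CPM and the satellite glia markers to 1821 to 2879 CPM, so both defining cell types of the ganglion were present. Every value below is a moderated log2 CPM, the log2 of CPM after a few prior reads are added to each value, unless a sentence says otherwise. Values near 0 reads are pulled together by that prior count, so differences of sparse genes are understated.

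Npy2r was lower in the mutant, and it was the receptor whose genotypes lay farthest apart. Expressed as log2 CPM it was 5.05, 4.95, 5.12 and 4.97 in the wild-type ganglia and 3.76, 3.65, 3.57 and 3.60 in the mutant ganglia. The groups did not overlap, and each group spanned less than 0.2 on the log2 scale. The underlying reads numbered 207, 245, 233 and 246 in wild-type and 89, 76, 75 and 83 in mutant libraries, far above the floor in each. The difference, mutant minus wild type, was -1.38 (SE 0.093; 95% interval -1.58 to -1.18), from 32.3 ± 1.77 CPM to 12.3 ± 0.76 CPM (SD, n = 4 each), which left 37.9% of the wild-type level. The gene (ENSMUSG00000028004) occupies chr3:82538383-82548084 of GRCm38 on the minus strand, with 4 annotated transcripts, and no other annotated gene overlaps Npy2r.

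Of the 9 receptors, 8 passed the filter on low values and were tested, and 1 of these, Npy2r, had an adjusted p under 0.05 in the limma fit across all 15030 tested genes, where 5.46% of genes were called. By direction 1 was called lower and 0 higher, against 2.64% and 2.81% of all tested genes. Npy2r alone had groups that did not overlap, with the mutant lower, against 12.4% of all tested genes, 4.92% with the mutant lower and 7.5% with it higher. Ordered by p over all tested genes Npy2r came at place 4, and ordered from the most negative difference it came at place 17. These counts and places come from the contrast that was known when the receptors were picked, and nothing is read from them. In whole ganglia fewer cells of a type and less transcript per cell cannot be told apart, which holds for every value given here.

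**Figure D1:**
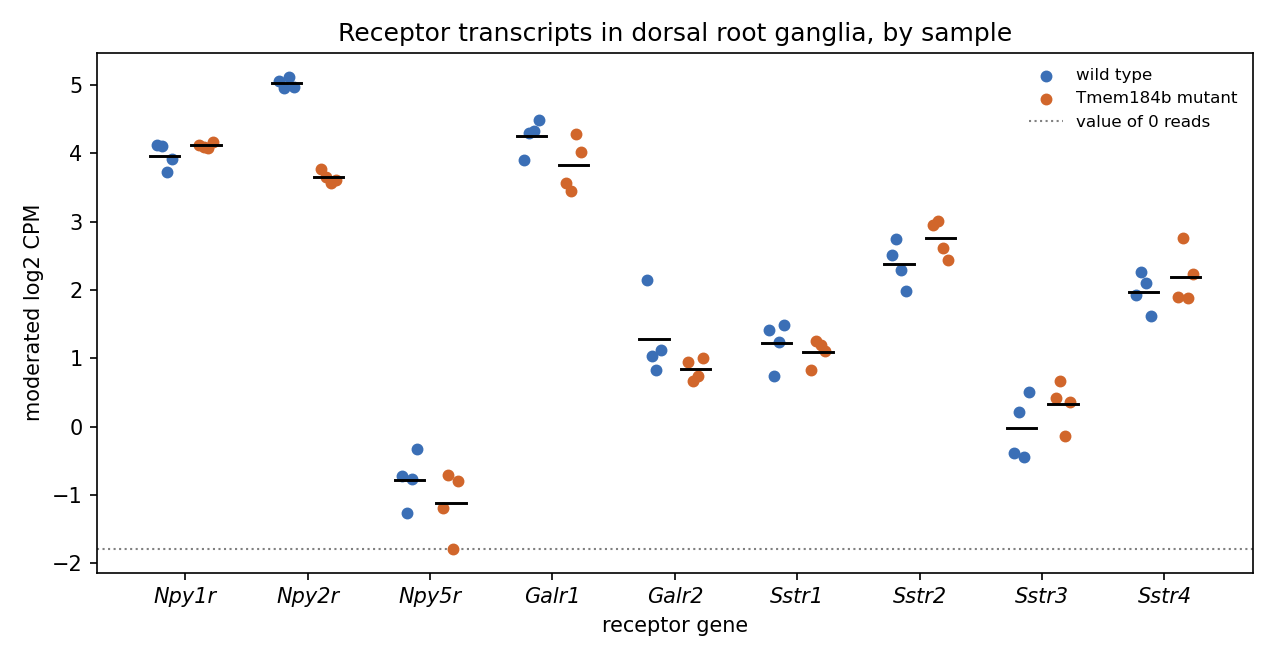
Moderated log2 CPM (y axis) of the 9 receptor genes (x axis), 1 point per sample, wild type in blue and mutant in orange, with a black bar at each group mean and a dotted line at the value of 0 reads. The 4 mutant points of Npy2r, 3.57 to 3.76, lie below its 4 wild-type points, 4.95 to 5.12, while the points of the other 8 genes overlap between genotypes.

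Npy1r, the Y1 receptor, gave values close together in the mutants. Expressed as log2 CPM it was 4.12, 4.10, 3.72 and 3.91 in the wild-type ganglia and 4.13, 4.10, 4.08 and 4.17 in the mutant ganglia. The groups overlapped, because wild types 1 and 3 lay within the mutant range. The difference was 0.15 (SE 0.112; 95% interval -0.08 to 0.39), so the interval leaves out a difference as large as that of Npy2r. Without wild type 4 the difference was 0.072, and without wild type 1 it was 0.21. Npy1r and Npy5r are neighbours on chromosome 8, with 9063 bases between them, and are transcribed away from each other. Npy5r, the Y5 receptor, had 2, 1, 2 and 4 reads in the wild-type ganglia and 1, 2, 0 and 2 in the mutant ganglia. Only wild type 8 was above the floor of 3 reads, so no difference in Npy5r was detectable at this depth and it did not pass the filter.

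Per sample, the ratio of Npy2r to Npy1r on the per-length scale (reads per kilobase of annotated exon, scaled like CPM, or RPKM) sets the 2 abundant NPY receptors side by side. The ratio was 1.96, 1.85, 2.73 and 2.15 in the wild-type ganglia and 0.79, 0.746, 0.709 and 0.683 in the mutant ganglia. Npy2r was thus the more abundant of the pair in all wild types and the less abundant in all mutants.

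The galanin receptors were lower on average in the mutant, with groups that overlapped. Galr1, an inhibitory receptor, stood at 3.90, 4.29, 4.32 and 4.48 log2 CPM in wild-type ganglia and reached 3.56, 3.45, 4.28 and 4.01 in the mutant ganglia. Mutants 1 and 2 lay below every wild type, and mutants 3 and 4 lay within the wild-type range. The difference was -0.42 (SE 0.174; 95% interval -0.79 to -0.05) and did not pass the threshold over all genes. It was -0.22 in the 6 samples whose numbers occur in both genotypes. Without mutant 3 it was -0.57, just short of a call (limma adjusted p = 0.0513). These values rest on 66 to 175 reads per library. Galr2 stood at 2.14, 1.03, 0.82 and 1.13 in the wild-type ganglia and at 0.95, 0.66, 0.74 and 1.004 in the mutant ganglia. Wild type 1, with 26 reads against 10 to 15 in the other wild types, was the highest of the 8 samples. The difference was -0.44 (SE 0.291; 95% interval -1.06 to 0.18). Without wild type 1 it was -0.15, and without wild type 4 it was -0.59.

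Among the somatostatin receptors none passed the threshold over all genes. Sstr2, the receptor most studied for somatostatin's analgesic action, stood at 2.51, 2.74, 2.29 and 1.98 log2 CPM in wild-type ganglia and reached 2.96, 3.01, 2.62 and 2.44 in the mutant ganglia. Mutants 1 and 2 lay above every wild type, and the other two mutants lay within the wild-type range. An annotated gene, Slc39a11, overlaps Sstr2 on the other strand. The difference was 0.38 (SE 0.197; 95% interval -0.04 to 0.80). Sstr4, another receptor linked to pain relief, stood at 1.92, 2.26, 2.10 and 1.62 in the wild-type ganglia and at 1.90, 2.76, 1.88 and 2.24 in the mutant ganglia. Mutant 2, at 40 reads, was the highest of the 8 samples, and the remaining mutants lay within the wild-type range. The difference was 0.22 (SE 0.228; 95% interval -0.27 to 0.71), and its sign turned to -0.089 in the 6 samples whose numbers occur in both genotypes. Without mutant 2 it was 0.030, without wild type 8 it was 0.099, and without mutant 3 it was 0.32. For Sstr2 the difference was 0.25 without wild type 8 and 0.16 in those 6 samples.

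Sstr1 stood at 1.42, 0.74, 1.24 and 1.49 log2 CPM in wild-type ganglia and reached 0.83, 1.26, 1.20 and 1.10 in the mutant ganglia, from 10 to 20 reads. All mutants lay within the wild-type range, and the difference was -0.12 (SE 0.244; 95% interval -0.64 to 0.40). Leaving out wild type 1 gave -0.059, wild type 8 gave -0.034, mutant 1 gave -0.036 and wild type 3 gave -0.29. Sstr3, the somatostatin receptor known for its place in neuronal primary cilia, had 3, 7, 3 and 9 reads in wild-type and 7, 8, 4 and 7 in mutant libraries, close to the floor. The difference was 0.35 (SE 0.328; 95% interval -0.35 to 1.05), and leaving out wild type 1 gave 0.23, wild type 4 gave 0.21 and wild type 8 gave 0.53. Sstr3 lies on chromosome 15, 815998 bases from the trapped Tmem184b, and its groups overlapped. The intervals of Sstr1, Sstr2, Sstr3 and Sstr4 are wide enough to hold differences of either sign.

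**Figure D2:**
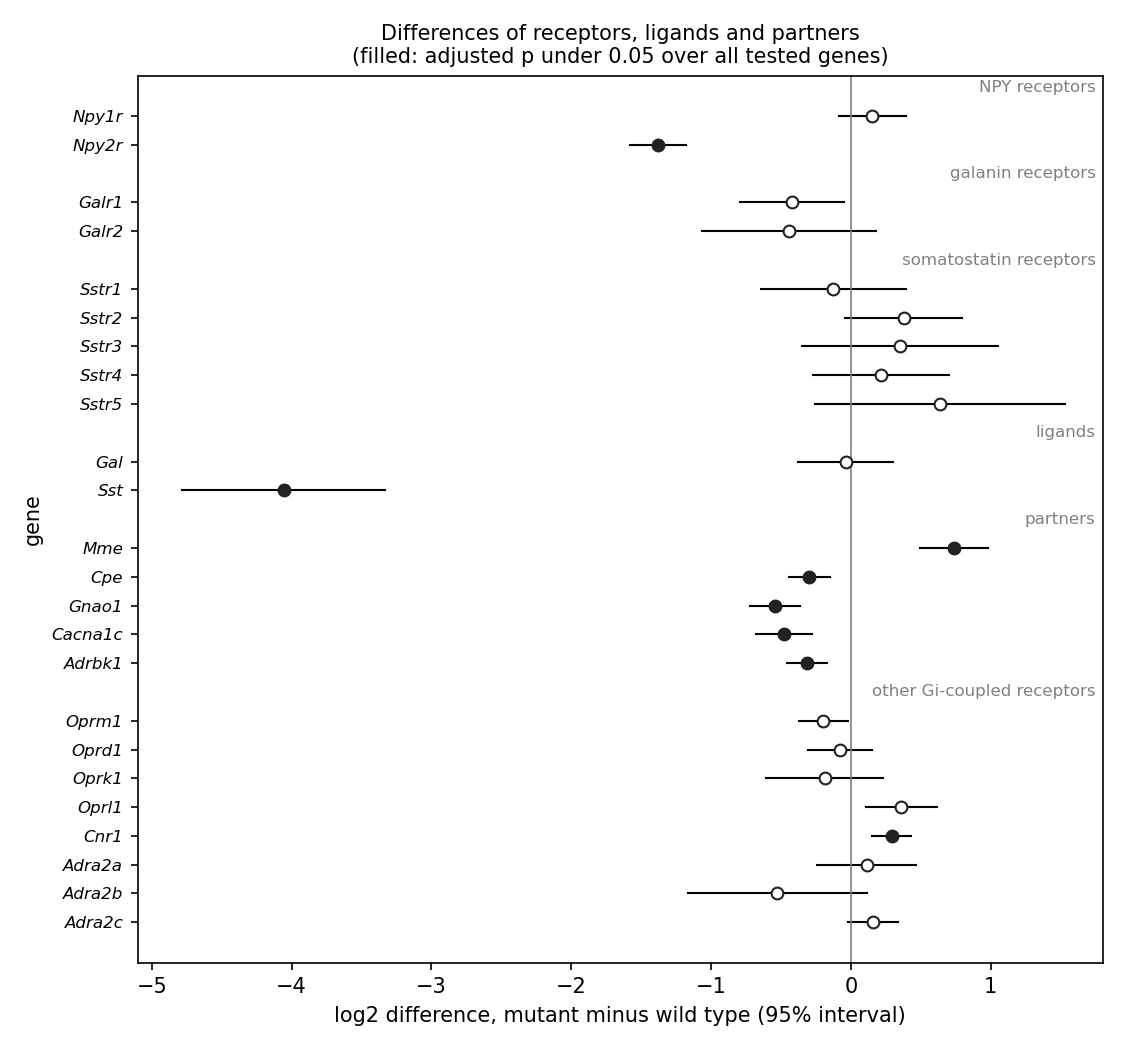
Log2 difference, mutant minus wild type (x axis), for the tested receptors, their tested ligands, the called partners and other Gi-coupled receptors (y axis, grouped), with 95% intervals from the limma fit; filled points have an adjusted p under 0.05 over all 15030 tested genes. Npy2r, at -1.38, is the filled point among the receptors for NPY, galanin and somatostatin, and Sst, at -4.06, is the lowest point.

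Levels of different genes were set side by side per length, in RPKM over the union of annotated exons. In wild type Npy2r was the highest of the 9, at 9.54 ± 0.52 RPKM, followed by Galr1 at 6.34 ± 1.05, Npy1r at 4.47 ± 0.58, Sstr4 at 2.59 ± 0.52 and Sstr2 at 2.34 ± 0.54 (SD, n = 4). Sstr1 at 1.02 ± 0.25, Galr2 at 0.94 ± 0.50, Sstr3 at 0.17 ± 0.077 and Npy5r at 0.12 ± 0.061 RPKM came after them. Along this order the wild-type ranges of Galr1 and Npy1r overlapped, as did those of Sstr4 and Sstr2, of Sstr1 and Galr2, and of Sstr3 and Npy5r, while the other neighbours lay apart. With the longest transcript as length, Galr2 at 1.19 RPKM came above Sstr1 at 1.04. In the mutant Npy2r stood at 3.62 ± 0.22 RPKM, below Npy1r at 4.95 ± 0.14 and Galr1 at 4.78 ± 1.32, and the ranges of neighbours overlapped from Npy1r down to Sstr2. Sstr4 stood at 3.11 ± 1.01 and Sstr2 at 3.06 ± 0.59 RPKM there.

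Summed over the 9 receptors, the per-length level was 27.5 ± 0.52 RPKM in wild type and 21.4 ± 0.77 RPKM in the mutant (SD, n = 4). Npy2r held 34.7% ± 2.17 of that sum in wild type and 16.99% ± 1.56 in the mutant. The somatostatin receptors together held 22.2% ± 2.38 and 34.2% ± 6.02, and the galanin receptors 26.5% ± 2.76 and 25.3% ± 6.21. Because shares add to a whole, a lower share of Npy2r raises the others. The summed level of the somatostatin receptors was 5.16 to 7.02 RPKM in the wild types and 6.23 to 9.49 RPKM in the mutants, which overlap.

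**Figure D3:**
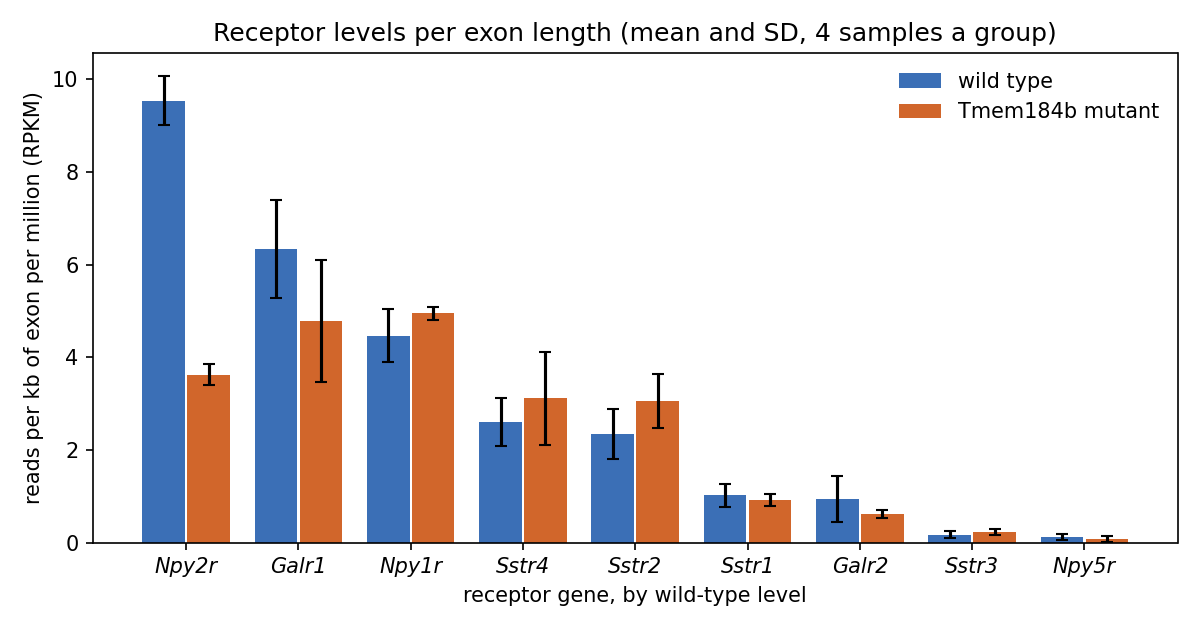
Mean level of each receptor (bars, y axis from 0) in RPKM, with SD over 4 samples, ordered by wild-type level along the x axis, wild type in blue and mutant in orange. Npy2r goes from 9.54 to 3.62 RPKM and is below Npy1r and Galr1 in the mutant.

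Related receptors outside the 9 were at or near the floor. Npy4r had 0 to 6 reads per library and did not pass the filter, and Npy6r was listed at 0 reads in all 8 libraries. Sstr5 had 1, 1, 7 and 7 reads in the wild-type ganglia and 8, 5, 4 and 6 in the mutant ganglia, and its difference of 0.64 was not called (SE 0.418; limma adjusted p = 0.409). Galr3 was looked up too, but its symbol was not found in the deposited table, so it has no value here.

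Among the ligands, those of the NPY family were scarce. Npy had 1 to 5 reads per library in either genotype, while Pyy, Ppy and Galp had 0 reads in all 8. Cort, whose peptide also binds somatostatin receptors, had 1 read in each of 2 mutants and 0 elsewhere, and Spx, whose peptide binds galanin receptor 2, had 0 to 7 reads. Gal stood at 3.93, 4.10, 3.97 and 3.73 log2 CPM in wild-type ganglia and reached 4.06, 3.998, 3.36 and 4.16 in the mutant ganglia. Its difference was -0.04 (SE 0.158; limma adjusted p = 0.922), and its sign changed to 0.14 when mutant 3 was left out and to 0.019 when wild type 3 was. Sst went from 47, 51, 93 and 124 reads in wild-type to 1, 3, 1 and 5 in mutant libraries, and 3.47% of its wild-type CPM was left. Of the 8 ligand genes 2 were tested, and 1 of them, Sst, fell, against 2.64% of all tested genes called lower. The 4 wild types alone met the filter for Sst, which stood at -1.19, -0.37, -1.17 and 0.006 log2 CPM in the mutants. Nothing is read from this count. The Sst difference was -4.06 (SE 0.341; limma adjusted p = 1.41e-05).

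Genes that carry the signal of these receptors were counted next, from lists of their known partners, against 2.64% of all tested genes called lower and 2.81% called higher. Of 5 inhibitory G protein alpha subunits, 5 were tested, and 1 fell and 0 rose. This was Gnao1, which encodes the alpha subunit Go, abundant in neurons: 10.04, 9.96, 10.005 and 9.95 log2 CPM in the wild types against 9.51, 9.56, 9.58 and 9.13 in the mutants. The Gnao1 groups did not overlap, and the difference was -0.54 (SE 0.083; limma adjusted p = 0.0021). Annotated genes overlap Gnao1 and Cacna1c, and whether counting used strand is not given in the sources used here. Without the variance trend the calls of Gnao1 and Cacna1c ended, at limma adjusted p of 0.0648 and 0.107. Of 5 voltage-gated calcium channel alpha subunits 1 fell, Cacna1c, an L-type channel, with a log2 difference of -0.48 (SE 0.094; limma adjusted p = 0.00994), and 0 rose. Cacna1b, the N-type channel that these receptors close at terminals, stood at a difference of -0.25 that missed the threshold (SE 0.0916; limma adjusted p = 0.13).

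Of 7 receptor kinases and arrestins tested, 1 fell, against 2.64% of all tested genes called lower. This was Adrbk1, the kinase that marks active receptors for arrestin, at -0.31 (SE 0.067; limma adjusted p = 0.0144). None of the 9 adenylyl cyclases and none of the 3 tested G protein-gated potassium channels was called in either direction, and Kcnj5 was at 0 or 1 read. Among 12 genes of peptide processing and breakdown 1 rose and 1 fell, against 2.81% of all tested genes called higher and 2.64% called lower. Mme, which encodes the peptidase neprilysin that cleaves somatostatin and other small peptides, rose from 3.90, 3.83, 4.05 and 4.30 log2 CPM in wild-type to 4.66, 4.78, 4.70 and 4.89 in mutant libraries. All mutants lay above all wild types, and the difference was 0.74 (SE 0.113; limma adjusted p = 0.0021). Cpe, a carboxypeptidase that trims peptide precursors, fell, with a log2 difference of -0.30 (SE 0.068; limma adjusted p = 0.0203).

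Other inhibitory receptors of sensory neurons give a scale for these counts. Of 8 tested opioid, cannabinoid and alpha-2 adrenergic receptors, 1 rose and 0 fell, against 2.81% of all tested genes called higher and 2.64% called lower. This was the cannabinoid receptor gene Cnr1, at 0.29 (SE 0.066; limma adjusted p = 0.02). Leaving out wild type 1 ended the calls of Cnr1, Cpe and Adrbk1, at limma adjusted p of 0.0714, 0.0762 and 0.0569, as did leaving out mutant 4 for Cnr1 (0.0515), wild type 3 for Cpe (0.0529) and mutant 1 for Adrbk1 (0.0505). The median log2 difference was 0.016 over those 8, 0.015 over the 8 tested receptors for NPY, galanin and somatostatin, and 0.066 over all tested genes. Of 7 Mas-related receptors, 3 fell, against 2.64% of all tested genes, Mrgprd at -0.85, Mrgpra3 at -0.80 and Mrgprx1 at -0.79, with limma adjusted p of 0.0019, 0.0438 and 0.0121. Mrgpra3 and Mrgprx1 belong to a multigene family whose members could share reads, and Mrgpra3 kept its call in 8 of 19 alternatives. Mrgprx1 lost its call without the variance trend (limma adjusted p = 0.0911) and in the 6 samples with shared numbers, at -0.57 (limma adjusted p = 0.0524 with the replicate block and 0.0742 without it), and Mrgprd without the variance trend (limma adjusted p = 0.0648).

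Genes whose pattern over the 8 samples was most like that of Npy2r were found by the root mean square distance between log2 CPM values centred on each gene's own mean. The nearest were Htr1a, which encodes an inhibitory serotonin receptor, at a distance of 0.166, the uncharacterised transcript A230052G05Rik at 0.178 and the oncostatin M receptor gene Osmr at 0.207. The median distance of all tested genes from Npy2r was 0.747. The root mean square of Npy2r about its own mean was 0.692, mainly its step between genotypes. Genes with a like step therefore come nearest by construction, and shared regulation was not tested. Htr1a stood at 3.51, 3.65, 3.70 and 3.59 log2 CPM in wild-type ganglia and reached 2.16, 1.94, 1.82 and 1.84 in the mutant ganglia. An annotated gene on the other strand overlaps A230052G05Rik. For Galr2, the receptor with the next largest difference, the nearest genes were D030068K23Rik at 0.235, Gm27042 at 0.237 and Nrg2 at 0.251, none of them called, and the first and second of these rest on 2 to 12 reads per library.

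**Figure D4:**
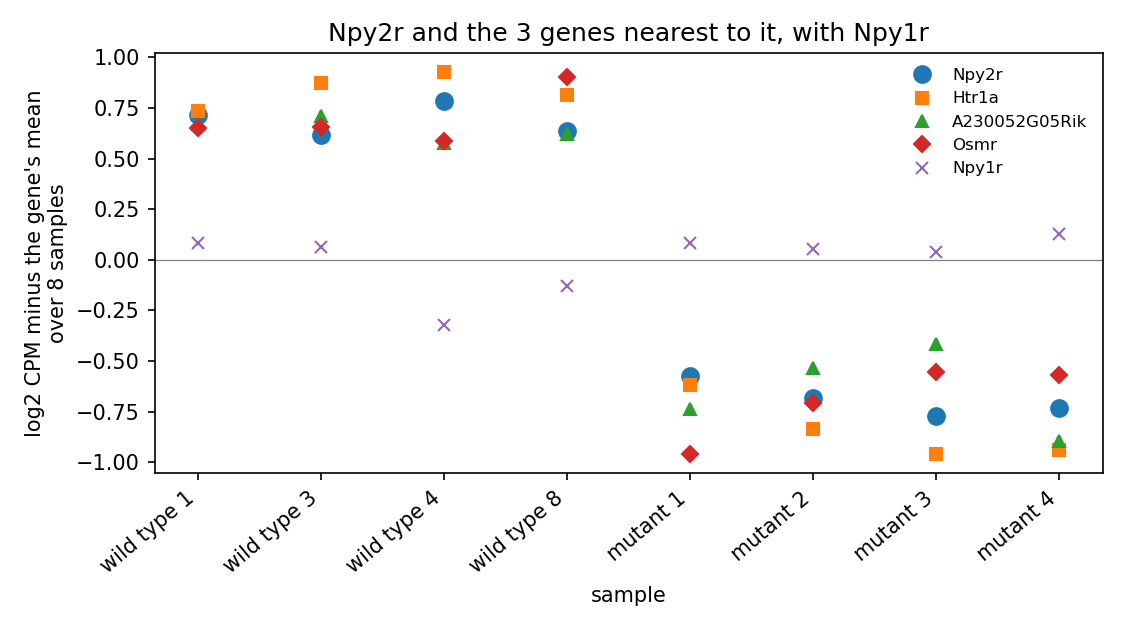
Log2 CPM minus the gene's mean over the 8 samples (y axis) for each sample (x axis), with 1 marker per gene: Npy2r, its 3 nearest genes Htr1a, A230052G05Rik and Osmr, and Npy1r for comparison. Npy2r and its nearest genes lie above 0 in all wild types and below 0 in all mutants, which the choice of nearest genes favours. Npy1r lies on both sides of 0 within wild type.

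Markers of some neuron classes moved with genotype beside Npy2r, and the counts below stand against 2.64% of all tested genes called lower and 2.81% called higher. The 8 markers of NP3 itch neurons, of which 7 fell and which include Osmr and Sst, summed to 672 to 720 CPM in wild-type and 458 to 500 in mutant libraries. The 7 markers of nonpeptidergic NP1 neurons all fell, from 1418 to 1538 CPM in wild-type to 787 to 1135 in mutant libraries. Of 5 NP2 markers 4 fell, from 184 to 205 CPM to 98.8 to 156. Such sums are weighted to the most abundant markers of a list. The median log2 difference per marker was -1.86 for NP3, -0.79 for NP2 and -0.67 for NP1. Of 8 peptidergic nociceptor markers 1 fell and 0 rose, with sums of 1346 to 1405 and 1252 to 1428 CPM, and of 9 markers of large neurofilament neurons 1 rose and 0 fell. None of 6 tested markers of C low-threshold mechanoreceptors was called. Of 7 pan-neuronal markers 1 fell, Syt1, and 0 rose, with sums of 7546 to 8353 and 7641 to 8278 CPM. Of the glial lists, 1 of 6 satellite glia markers and 2 of 6 Schwann cell markers rose, with Schwann sums of 2419 to 3162 and 2856 to 3437 CPM. Of 6 fibroblast markers 1 rose, Dcn, with sums of 611 to 1222 and 794 to 1177 CPM, and of 5 tested immune cell markers 1 rose, Cd163, with sums of 29.7 to 45.3 and 36.5 to 63.9 CPM. The skeletal muscle markers summed to 2.86 to 31.4 CPM in wild-type and 9.41 to 149 in mutant libraries, with 0 of 4 tested called. No marker in these lists was at 0 reads in all samples. Their part in the differences of the receptors was not tested.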

How the data were processed

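Values of 8 samples were deposited by the authors as log2 CPM with a prior count, in a single table. Each column was given to the sample whose title holds the same genotype and sample number. A further serial number in the headers, with no meaning given, runs without gaps over the mutants but not over the wild types, so a batch that follows it cannot be told apart from genotype. Salmon 0.11.1, DESeq2 and the mm9 build are named without a role in the submitters' processing notes. The annotation and strand use are not given in the sources used here. GENCODE M21 (GRCm38) places genes and gives exon lengths, and matched 40254 of 40800 identifiers. RefSeq (GRCm38.p6) gives promoter windows.

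All columns shared a floor of -1.79, the value of 0 reads. Above it 100.0% of values were whole multiples of 1 read (within 0.001 reads), with a prior averaging 2 reads, which gave back reads and library totals. Genes above 0 log2 CPM in at least 4 of 8 samples were tested with limma 3.58.1 in R 4.3.3 (mean-variance trend, two-sided, no covariate), with Benjamini-Hochberg adjustment over 15030 genes and a call under 0.05. The fit was tested on simulated reads. RPKM used reads, library totals and the union of exons. Tables and plots used Python 3.11.15, pandas 2.3.3, numpy 2.4.6, biopython 1.88 and matplotlib 3.10.9. The receptors, lists and naming rule (the 9 receptors, their family and ligands, called list genes, and the 3 nearest genes of 2 receptors) were chosen with earlier results of these data known. The alternatives were other filters, an added 1 CPM, median centring, quantile normalization, variance models, Xist as a covariate, each sample left out, a replicate block, a looser threshold, another length, and voom on the recovered reads, which was chosen after seeing the data.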

Additional observations from a re-analysis of the deposited data

Results flagged for a closer look

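In 56 groups of 4 values, the highest or lowest sample stood apart from the other 3 in 2, where chance gives about 1 in 20. Neither concerned a receptor for NPY, galanin or somatostatin. Gnao1 stood at 9.13 log2 CPM in mutant 4 against 9.51 to 9.58 in the other mutants, from 3909 reads against 4661 to 4952. Mrgpra3 stood at 5.21 log2 CPM in wild type 8 against 4.16 to 4.33 in the other wild types, from 290 reads against 117 to 140.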

How the results depend on the processing

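Npy2r was called in all 19 alternatives that refitted the table, with a difference of -1.47 to -1.33, and no other tested receptor was called in any of them. The count of receptors called lower stayed at 1 and that called higher at 0 throughout, also when each sample was left out. Sst, Mme, Htr1a, A230052G05Rik and Osmr were likewise called in all 19.

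Counts over all genes moved more. Against 423 higher and 397 lower genes, median centring gave 204 and 706, no variance trend 67 and 75, and the looser threshold of 0.1 gave 876 and 612. Quantile normalization gave 271 higher genes. Leaving out 1 sample gave 174 to 572 higher and 230 to 427 lower genes. Without the variance trend Cpe, Gnao1, Cacna1c, Adrbk1, Cnr1, Mrgpra3, Mrgprx1 and Mrgprd were no longer called, and median centring ended the call of Cnr1, at 0.20 (limma adjusted p = 0.12). The cause was not tested. Centring lowered the median difference of all genes from 0.066 to -0.026. Signs turned for Gal without wild type 3 (0.019) and without mutant 3 (0.14), where leaving out 1 sample gave -0.13 to 0.14, and for Gm27042 without wild type 1 (0.15), in a range of -0.15 to 0.15. With the longest transcript as length, Npy1r stood at 5.14 RPKM, and Galr2 (1.19) came above Sstr1 (1.04).

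The numbers 1, 3 and 4 occur in both genotypes, and the labels do not say that they pair the samples. Deviations of same-numbered samples correlated at 0.081, 0.041 and 0.058 across genes. Differently numbered samples were not compared, so these values cannot decide whether the numbers pair. A replicate block on those 6 samples left 326 genes higher and 345 lower, against 180 and 267 when the block was dropped. Sstr4 stood at -0.089 with and without the block. The planned count models were not run on the recovered reads, and voom took their place. Voom on the recovered reads gave 415 higher and 399 lower genes. Depth limits Npy5r, Sstr3, Npy4r, Sstr5, Npy, Cort and Spx, which held 0 to 9 reads per library.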
